A study of Mus musculus with 2 samples.

Results

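The cells described are Pax2 positive GABAergic interneurons of the embryonic mouse cerebellum, measured by sequencing the 3' ends of transcripts from single cells in droplets, where each unique molecular identifier (UMI) stands for 1 captured molecule. Members were chosen by their own counts: a member had at least 1 UMI of Pax2, at least 1 UMI summed over Gad1, Gad2, Slc32a1 and Slc6a5, and no UMI of Ptf1a, and its barcode had to reach 1000 UMIs and 500 genes with no more than 10% of UMIs from mitochondria. There were 613 members among 33294 such cells: 582 of 16812 in the control library and 31 of 16482 in the mutant library. Whole cerebella were collected at E16.5. The control embryos were cre-negative. The mutants combined Blbp-cre with the alleles Ctnnb1(ex3)fl/wt and Smarca4fl/fl and had lesions in the cerebellum. Blbp is another name of Fabp7, whose promoter is active in neural progenitors, so recombination is expected in their progeny and not in one cell type alone. The ex3 allele loses an exon that marks beta-catenin for degradation, while SMARCA4 is an ATP-driven motor of BAF, a chromatin remodelling complex. Material of 3 samples was pooled for each genotype into 1 library, so cells are not replicates, no test between groups was possible, and every interval below is a 95% interval for counting error only.

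In the cerebellum, GABAergic neurons arise from the ventricular zone, where the transcription factor PTF1A is required for their formation. Purkinje cells leave the cycle early, while interneuron precursors switch on PAX2, move through the prospective white matter and settle as the inhibitory neurons of the nuclei, Golgi cells and, later, basket and stellate cells. GAD1 and GAD2 make GABA, SLC32A1 loads GABA and glycine into synaptic vesicles, and SLC6A5 is the neuronal glycine transporter found in glycinergic and mixed neurons such as Golgi cells.

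The rule itself used Pax2, Gad1, Gad2, Slc32a1, Slc6a5 and Ptf1a, so the levels of these genes describe the choice and show nothing more. Control members held 1 to 25 Pax2 UMIs with a median of 4. At the edge of the rule, 95 of them had a single Pax2 UMI and 487 had 2 or more. Just outside it lay 201 control cells with Pax2 but no inhibitory UMI and 80 with Pax2 and an inhibitory UMI that were removed for Ptf1a, while 1033 had an inhibitory UMI but neither Pax2 nor Ptf1a. Members with 1 Pax2 UMI had Tfap2b at 233 CPM (the UMIs of a gene summed over the cells of a group, relative to the group's total), members with 2 or more had 506 CPM, and cells with Pax2 but no inhibitory UMI had 226 CPM. Inhibitory cells without Pax2 had 42.4 CPM of Tfap2b. Among inhibitory genes, Gad1 was seen in 80.8% of control members, Slc32a1 in 62.0%, Gad2 in 45.7% and Slc6a5 in 44.5%. Slc32a1 and Slc6a5 were seen together in 27.3%, and 4.12% carried Slc6a5 without Gad1 or Gad2. These shares depend on depth. After every cell was thinned to 3000 UMIs, which left 533 of the 582 control members, they came to 49.7% for Gad1, 33.6% for Slc32a1, 21.01% for Gad2 and 17.8% for Slc6a5.

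Of the 5 marker genes set for the type, Tfap2a and Lhx5 took no part in the rule, and both were seen in most control members. Tfap2a, which encodes the AP-2 alpha transcription factor, was detected in 428 of 582 members (73.5%, interval 69.8 to 77.1%) and in 2.93% of the other control cells. Lhx5, a LIM homeodomain factor of early inhibitory neurons, was detected in 64.9% of members and 2.75% of other cells. Tfap2b, the AP-2 beta paralogue, reached 89.3% against 4.94%. As a rough measure of free RNA, 666 control barcodes with over 50% haemoglobin UMIs were used. They showed Tfap2a in 3.30%, Lhx5 in 3.15% and Tfap2b in 5.11%, at a median of 17504 UMIs against 9967 in members. These barcodes include the 17 control members over 50% haemoglobin, so the shares are not of free RNA alone. Haemoglobin made up a median of 76.9% of their UMIs, so thinning left them fewer other UMIs than members. Thinned shares in members were 45.6% for Tfap2a, 35.6% for Lhx5 and 69.6% for Tfap2b, and 1.37%, 1.37% and 2.13% in the haemoglobin-rich barcodes. Of the 8 Purkinje cell markers, Skor2 was seen in 1 of 582 members and Calb1 stood at 0.805 CPM. Dab1, at 117 against 54.8 CPM in other control cells, was at least 2-fold higher, Foxp2 stood at 154 against 97.0 CPM, and Pcp4 was lower, with a median log2 ratio of 0.32 over the 5 tested. In the core members set apart below, 0 of the 5 were higher and 1 was lower, and the median was -0.18. The core was chosen for few enriched markers of other types, the Purkinje list included, so these core values follow in part from that choice. Defining genes of the midbrain type were also scarce, with Gata3 in 0 of 582 members, which allows a share of up to 0.515% with a UMI. By Tfap2a and Lhx5, which the rule did not use, the members thus carried the markers of their label.

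Several features of the members bear on every comparison below. Doublets (droplets with more than 1 cell) were called for 72 of 582 control members (12.4%) and for 5.53% of all control cells, and they were kept in the main values. Depth was close to that of the other control cells, with medians of 9967 and 10264.5 UMIs. Over 50% of UMIs came from haemoglobin genes in 17 control members. The 2 libraries shared 123 barcodes, and 4 control members had a barcode that also occurs in the mutant library. Clustering of the members on genes outside the rule gave 9 subclusters. In 3 of them, no marker list of another cell type had 3 or more enriched genes, the lists of PTF1A lineage progenitors and red cells aside. These are called core members here, a choice made after the data were seen. Low levels of markers of other types in the core follow in part from this choice. They held 332 control members (57.0%) with 0.904% called doublets and a median of 8092 UMIs, while the 250 outside them had 27.6% called doublets and a median of 15201.5 UMIs. Where the direction of a gene list in control members differed in the core, the core counts are given beside it.

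**Figure D1:**
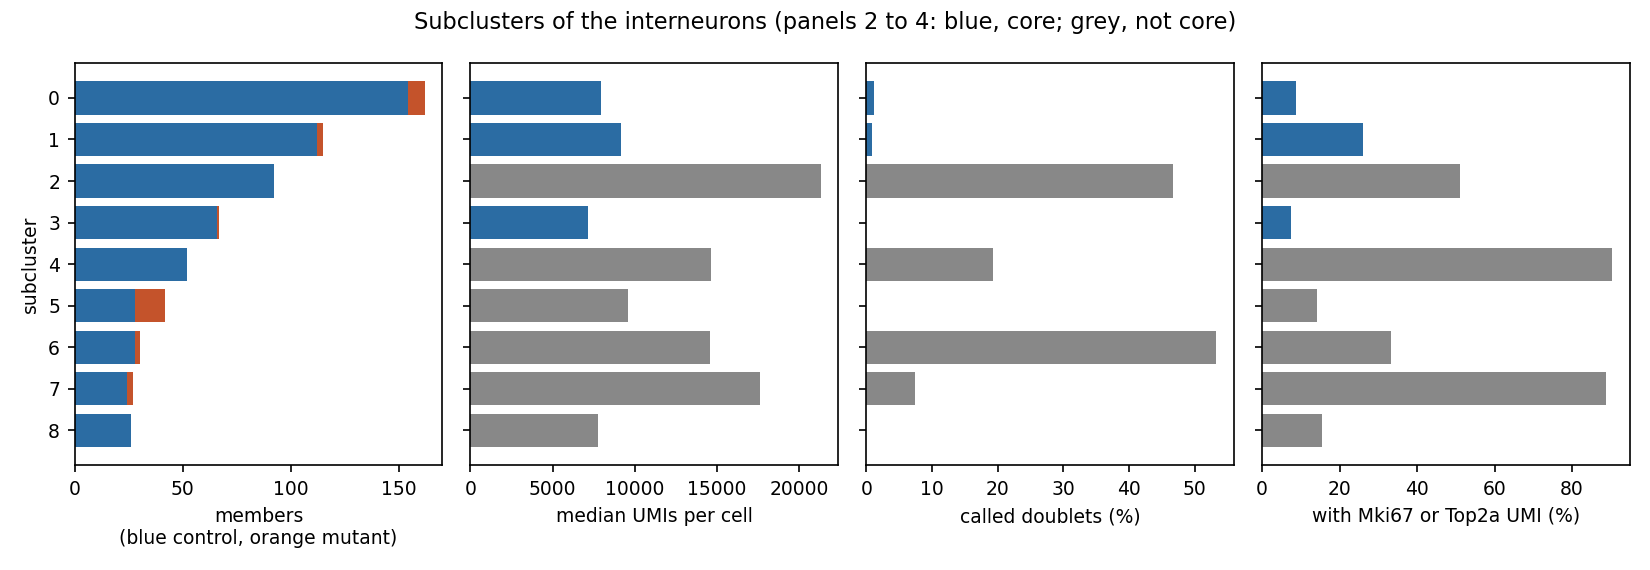
Members of each of the 9 subclusters: number of cells by library, median UMIs per cell, percent called doublets and percent with an Mki67 or Top2a UMI. Subclusters 0, 1 and 3 (core, blue) have at most 1.23% called doublets, whereas subclusters 2 and 6 reach 46.7% and 53.3%.

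Against the 16230 other control cells, the interneurons had higher levels of a group of transcription factors, adhesion and synaptic genes and neuropeptides. Zfp804a, which encodes a zinc finger protein, stood at 959 CPM in members and 32.5 CPM in other cells, a ratio of 29.5 (28.5 to 30.5). Tfap2a stood at 177 against 5.49 CPM, a ratio of 32.3 (29.7 to 35.1), and Lhx5 at 150 against 5.45 CPM. Tfap2b was at 466 against 22.2 CPM, and Skor1, a transcriptional corepressor, at 70.7 against 2.71 CPM. The presynaptic adhesion gene Nrxn3 reached 6779 CPM in members and 371 CPM in the rest, and was detected in 579 of 582 members. Megf11, a homotypic adhesion receptor known from mosaic spacing in the retina, was at 292 against 10.6 CPM. The neuropeptide genes Sst (somatostatin) and Pnoc (nociceptin precursor) were at 173 and 62.5 CPM against 9.90 and 2.53 CPM. They came from fewer cells, 148 and 131 of the 582, than Zfp804a (497) or Tfap2b (520). Neither Sst nor Pnoc was higher than in the inhibitory cells with Tal2, Gata3 or Sox14 described below.

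The rest of the 20 genes with the largest ratios were Glra2, Cacna2d3, Klhl35, Dscaml1, Cdkn1c, Cttnbp2, Crtac1, Sez6, Kcnmb2, Dpf3 and Optc. Glra2, the fetal glycine receptor subunit, stood at 177 against 9.28 CPM, and Cacna2d3, an auxiliary calcium channel subunit, at 278 against 19.8 CPM. Cdkn1c, an inhibitor of cyclin-dependent kinases linked to cell cycle exit, stood at 1047 against 121 CPM. Dpf3, a subunit of the neuronal form of the BAF complex, stood at 153 against 22.9 CPM. At the other end were genes of astroglia, progenitors and macrophages: Pf4, Aldoc, Ramp1, Apoe, Fgfbp3, Ptgds, Mfge8, Fabp7, Ednrb and Pla2g7. Fabp7, a radial glial fatty acid binding protein, was at 573 CPM in members and 2588 CPM in other cells. All 20 higher and all 10 lower genes were at least 2-fold apart from the other control cells in the same direction both in core members and in the members outside the core. These genes were picked as the extremes of both sets summed, so the agreement follows in part from that choice.

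**Figure D2:**
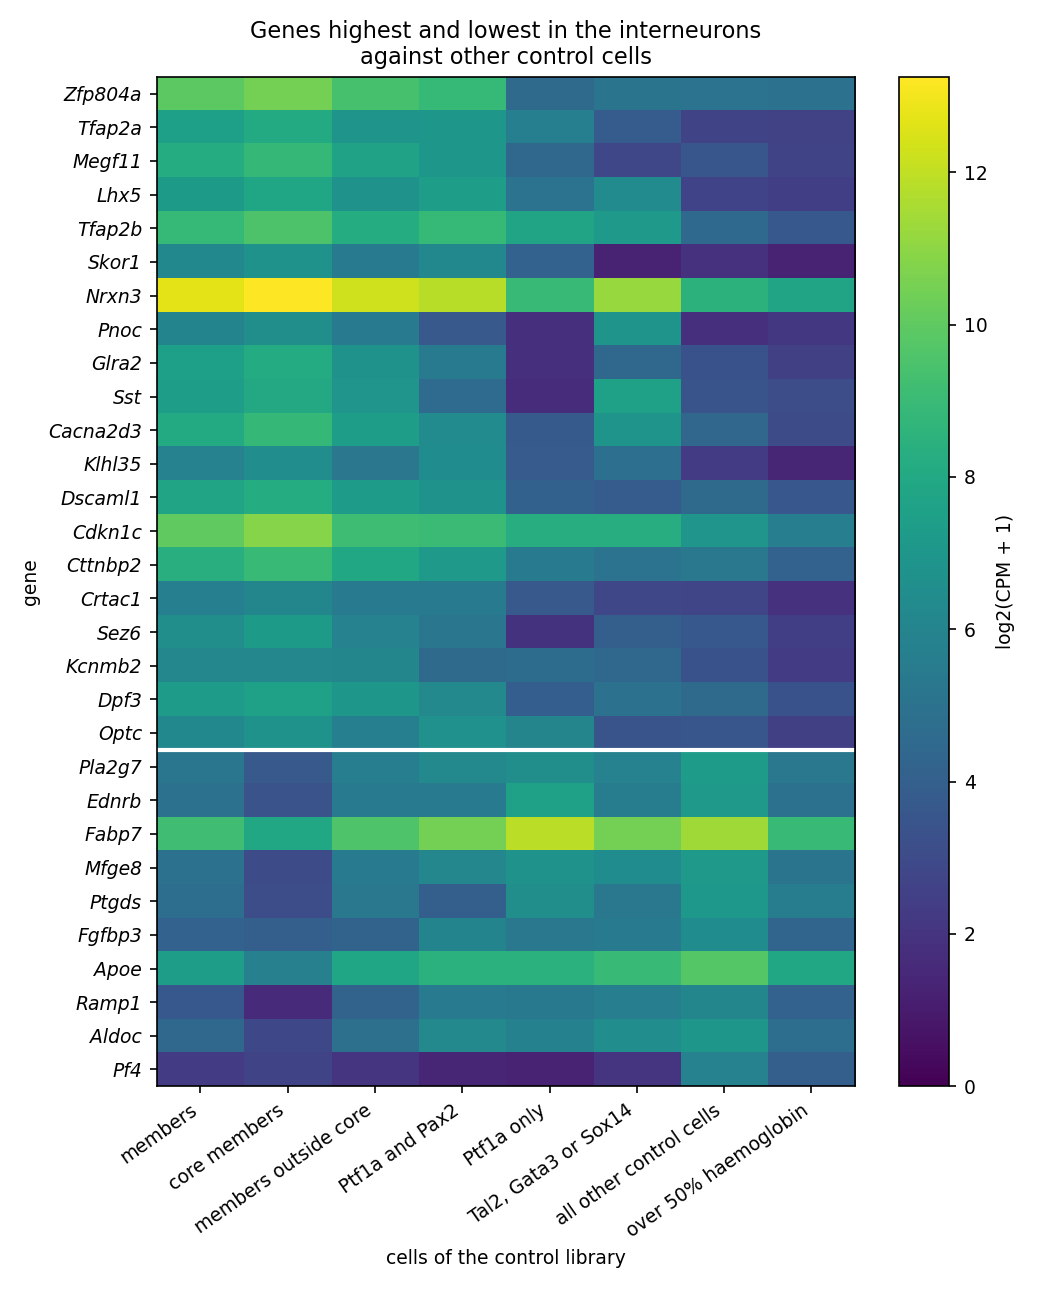
Levels, as log2(CPM + 1), of the 20 genes highest and the 10 lowest in control members against other control cells (rows, above and below the white line), in 8 sets of control cells (columns). Zfp804a, Nrxn3 and Cdkn1c are brightest in core members, at 1420, 9764 and 1824 CPM, and Fabp7 is brightest in Ptf1a only cells, at 3767 CPM.

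A gene was called higher or lower by size alone, at a 2-fold ratio of (CPM + 1), if it reached 10 CPM in at least 1 of the groups. By this rule 439 of 9749 genes (4.5%) were higher and 440 (4.51%) lower in control members than in other control cells. Among core members the counts were 662 (6.74%) and 1509 (15.4%) of 9825. Gene groups differed from this background in the share of their members called. Of 24 voltage-gated channel genes tested, 11 were higher and 0 lower, with a median log2 ratio of 0.92 against 0.03 over all genes. They included Cacna2d3, Kcnma1 (130 against 27.6 CPM), Scn3a (72.3 against 15.2 CPM) and Kcna2. In core members 12 of 24 were higher and 4 lower. Of 39 cell adhesion genes 11 were higher and 0 lower, among them Nrxn3, Nxph1, Negr1 (543 against 138 CPM) and Chl1, but in core members 10 were higher and 16 lower, so the list had no common direction there. Synaptic vesicle genes were higher for 8 of 22 and lower for 1. Syn3, a synapsin, stood at 131 against 26.8 CPM, and Rab3a, a vesicle GTPase, at 345 against 106 CPM. Core members had 10 higher and 3 lower in that list.

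Receptors for GABA and glycine had 3 of 13 genes higher, Glra2 among them, and 1 lower (Gabrg1), and in core members 6 of 14 higher and 4 lower. Glutamate receptors had 5 of 20 higher and 2 lower, with Grin1, the obligatory NMDA receptor subunit, at 36.4 against 8.03 CPM and Gria3 at 70.3 against 17.7 CPM. In core members 5 glutamate receptors were higher and 7 lower, Grm5, Grik1 and Gria1 among the latter. In the migration and cytoskeleton list, 6 of 27 were higher and 1 lower. Dcx (doublecortin), a microtubule protein of migrating neurons, stood at 408 CPM against 132 CPM. Core members had 6 genes of that list higher and 6 lower, with Reln and Cxcr4 among the lower ones. Among axon guidance genes, 5 of 29 were higher and 1 lower, but core members turned the balance, with 4 higher and 11 lower and a median log2 ratio of -0.47. Slit1, Slit2 and Robo2 were among those 11. Unc5c, a netrin receptor, stood at 2620 against 795 CPM, and Robo3, a divergent Slit receptor family member, at 38.1 against 4.53 CPM. The list of handling genes for GABA and glycine had 1 of 13 higher and 3 lower once the genes of the rule were set aside. The gene higher was Abat, the enzyme that degrades GABA (98.9 against 27.6 CPM), and those lower were the transporters Slc6a13, Slc6a9 and Slc6a11.

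Genes that keep progenitors undifferentiated went the other way. Of 13 Notch pathway genes 0 were higher and 6 lower, with a median log2 ratio of -0.88. Hes1 and Hes5, the effectors of Notch signalling, stood at 9.26 and 23.1 CPM against 49.8 and 103 CPM. Core members had Hes5 at 4.93 CPM and 9 of 13 genes of the list lower, with Dll1, a Notch ligand, the 1 gene higher. In the ventricular zone list, 8 of 20 genes were higher (Tfap2a, Lhx5, Tfap2b, Skor1, Prdm13, Neurog2, Neurod6 and Bhlhe22) and 3 were lower (Olig1, Sall3 and Olig2), while core members had 8 higher and 8 lower. Hedgehog pathway genes had 1 of 13 higher (Sufu, an inhibitor of GLI factors, 67.6 against 27.7 CPM) and 2 lower (Ccnd1 and Gas1), and in core members 1 of 12 higher and 7 lower. Of 12 SOX and NFI factors, Sox11 alone was higher (1206 against 518 CPM), and Sox9 and Sox2 were lower. Core members had 3 of those factors higher (Sox11, Sox4 and Nfib) and 5 lower. Markers of astroglia were lower for 7 of 8, of microglia for 3 of 3, of fibroblasts for 5 of 5 and of granule cell precursors for 3 of 4. Choroid plexus transcripts did not separate the groups: Ttr was at 5006 CPM in members and 5373 CPM in other cells. In core members 4 of 4 choroid plexus markers were lower and Ttr was at 181 CPM, and its UMIs lay mainly in subclusters 2, 4 and 7. The part of doublets and free RNA in such levels was not tested.

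For genes tied to the type, the region just before a transcription start is shown because Tfap2a and Sst were the members of the 20-gene list whose 250 bases there held 2 motifs that are uncommon among mouse promoters. Sequences are from RefSeq on GRCm38.p6, given on the coding strand, with the motif in capitals. They are TAATTA, a homeodomain core, for the second of the 2 Tfap2a starts in the table, chr13:40734921-40735170 on the minus strand, and TGACGTCA, the cAMP response element, for Sst, chr16:23890845-23891094 on the minus strand.
Tfap2a: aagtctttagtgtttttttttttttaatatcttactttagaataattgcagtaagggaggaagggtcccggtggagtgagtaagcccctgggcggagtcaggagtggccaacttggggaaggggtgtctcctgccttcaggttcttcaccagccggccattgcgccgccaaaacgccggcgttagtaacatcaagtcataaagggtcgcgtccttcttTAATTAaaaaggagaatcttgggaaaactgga
Sst: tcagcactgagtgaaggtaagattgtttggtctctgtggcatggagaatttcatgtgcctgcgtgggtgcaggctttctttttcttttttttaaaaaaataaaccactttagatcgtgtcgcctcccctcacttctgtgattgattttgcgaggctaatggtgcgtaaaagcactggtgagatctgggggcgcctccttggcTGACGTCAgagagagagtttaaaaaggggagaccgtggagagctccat
Both motifs read the same on either strand. The first was held by 4.84% of all 32851 promoter windows of 250 bases and the second by 1.55%. Promoters of 14 of the 20 genes were in the table. Counting a gene if any of its windows matched, 1 of these 14 held TAATTA and 1 TGACGTCA, against 5.65% and 1.77% of all 27025 genes. The AP-2 motif GCCNNNGGC was in 1 (Crtac1) against 15.4% of all genes, and the E-box CAGCTG in 4 against 14.7%. A match describes the sequence and is no evidence of binding.

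Progenitors of the same lineage were represented by the 283 control cells with Ptf1a and no Pax2. Against them, members had higher levels of channel and vesicle genes and of the neuropeptide genes Sst and Pnoc, and lower levels of Notch pathway genes. Sst stood at 173 against 2.16 CPM, a ratio of 80.1 (42.1 to 176), and Glra2 at 177 against 2.40 CPM. Zfp804a stood at 959 against 22.8 CPM, a ratio of 42.1 (34.4 to 52.1). Sez6, Cacna2d3, Pnoc, Nxph1 and Galntl6 completed the 8 largest ratios. Among the 8 genes with the smallest were Nphs1, Scube2, Ass1, Ptx3, Adgrg6, Pvalb and Hhip. Pvalb, later a marker of mature Purkinje and molecular layer cells, stood at 11.8 against 174 CPM, and Hhip, a Hedgehog binding protein, at 10.3 against 142 CPM.

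In all, 820 of 9722 genes (8.43%) were higher in members than in the Ptf1a cells and 579 (5.96%) lower. With core members the counts were 934 (9.6%) and 1520 (15.6%) of 9725. Voltage-gated channels were higher for 18 of 24 genes and lower for 0, with a median log2 ratio of 1.48 against 0.01 over all genes. Synaptic vesicle genes were higher for 15 of 22 and lower for 0. Rab3a stood at 345 against 40.5 CPM and the synaptophysin gene Syp at 79.98 against 14.4 CPM. Receptors for GABA and glycine were higher for 4 of 12 and lower for 1, and glutamate receptors for 8 of 20 and 2. With core members the glutamate receptors had no common direction, at 5 of 19 higher and 5 lower with a median log2 ratio of 0.02. In the cytoskeleton list 10 of 27 were higher, Dcx (408 against 61.3 CPM) among them, and 3 lower. Notch pathway genes were lower for 9 of 14 and higher for 0, S phase genes lower for 22 of 42 and G2 and M phase genes lower for 6 of 51. Of the ventricular zone factors, 8 of 22 were higher and 6 lower, among them Kirrel2, Gsx1, Neurog2, Prdm13 and Olig1. For core members the vesicle and channel lists had 14 and 15 genes higher, each with 3 lower, Notch genes were lower for 12 of 14, and the ventricular zone factors turned to 6 higher and 10 lower. Choroid plexus markers moved with this comparison too: 3 of 4 were higher in members, with Ttr at 1705 CPM in the Ptf1a cells, and 2 of 2 were lower in core members. Their part in the result was not tested.

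A group of 80 control cells held Ptf1a, Pax2 and an inhibitory UMI, and lay between those populations for most of the genes called between them. Tfap2a was at 50.8 CPM in cells with Ptf1a only, 129 CPM in those with both and 177 CPM in members. Zfp804a followed the same order at 22.8, 469 and 959 CPM, Nrxn3 at 510, 3620 and 6779 CPM, and Sst at 2.16, 23.8 and 173 CPM. Lhx5 did not follow it, at 31.9, 167 and 150 CPM, nor did Tfap2b, at 216, 466 and 466 CPM. Downward, Hes5 stood at 190, 34.9 and 23.1 CPM. Prdm13, a transcriptional repressor that marks progenitors of the Ptf1a lineage, stood at 62.1, 48.7 and 19.6 CPM. Cell cycle inhibitor Cdkn1c was at 303, 519 and 1047 CPM. Of the 820 genes higher in members 706 (86.1%) had a level between the other groups in the cells with both, as did 400 of the 579 lower ones (69.1%). On the log2 scale the median gene had covered 50.2% of the upward and 70.3% of the downward difference. These genes were chosen for differing between the end sets, so a mixture of those sets would also lie between them. No share over other genes or cell sets was computed, and the shares do not show an intermediate state. Since the sets are cut from the same library on 2 of its genes, this order describes the gate and is not a time course.

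**Figure D3:**
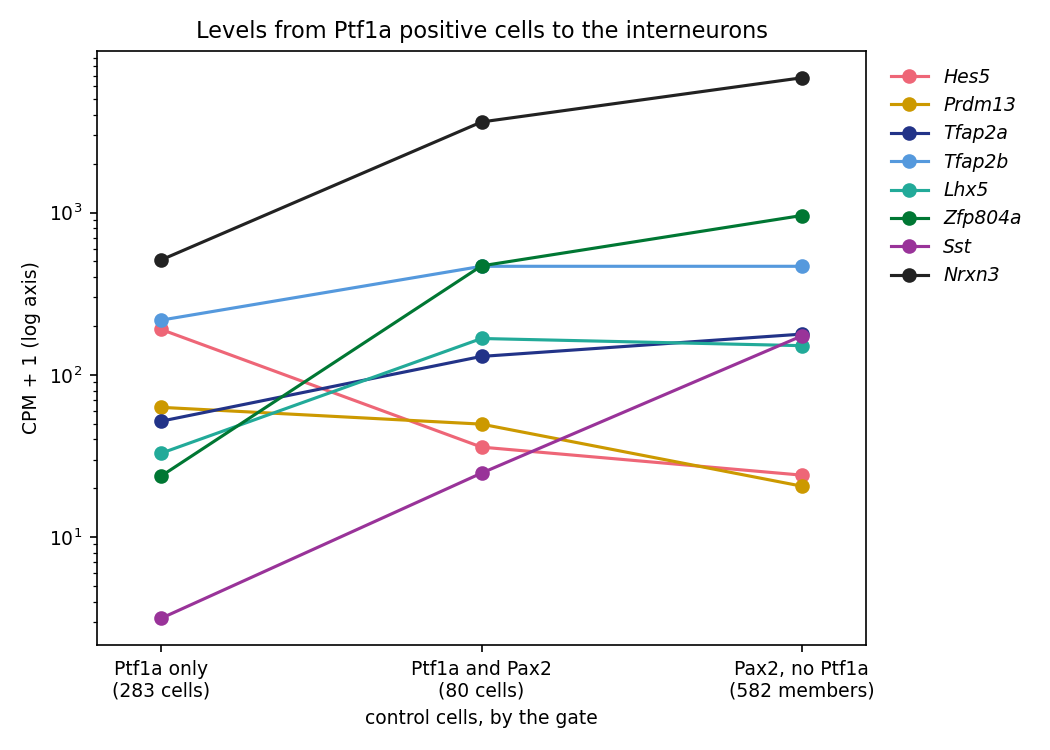
Levels of 8 genes, as CPM + 1 on a log axis, in control cells with Ptf1a only, with Ptf1a and Pax2, and in members. Zfp804a, Nrxn3 and Sst are higher at each step, Hes5 and Prdm13 lower at each step, and Tfap2b is at 466 CPM in both the second and the third set.

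Another inhibitory population served for comparison, the 71 control cells with Tal2, Gata3 or Sox14, which are factors of GABAergic neurons of the midbrain and isthmus. Members had higher Megf11 (292 against 6.05 CPM), Skor1 (70.7 against 1.51 CPM), Zfp804a (959 against 33.3 CPM), Tfap2a (177 against 13.6 CPM) and Nhlh2 (267 against 23.4 CPM), with Etl4, Pde3a and Dscaml1 completing the 8 largest ratios. Of the 2 type markers outside the rule, only Tfap2a was at least 2-fold higher. Lhx5 was not called either way, in all members or in core members. In the ventricular zone list 10 of 23 genes were higher and 9 lower, Lhx1 among the lower ones, with a median log2 ratio of 0.75. Without the deep reference cells described below, 8 of 23 were higher and 9 lower. Core members against that reference had 8 of 23 higher and 11 lower, with a median log2 ratio of -0.23. Six3, a forebrain and midbrain homeodomain factor, had 0 UMIs in members, a level at least 439-fold lower than the 177 CPM of the other cells, with the floor set at 3 UMIs over all members. Tal1 had 0 UMIs as well and was at least 163-fold lower. Npy, a neuropeptide gene, was at 0.268 CPM from 2 UMIs against 66.5 CPM, a ratio of 0.00403 (0.000481 to 0.0150). Six3os1, Asic4, Tafa1, Il1rapl2 and Syt4 were the remaining genes of the lower 8. Sst was at 173 and 191 CPM, a ratio of 0.904 (0.789 to 1.04), and Pnoc was at 62.5 and 116 CPM. Gad2 was at 76.9 CPM in members and 198 CPM in the other type, and Slc6a5, the glycine transporter, at 61.5 and 1.51 CPM, though both genes belong to the rule.

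By count, 1154 of 9528 genes (12.1%) were higher in members than in the Tal2, Gata3 or Sox14 cells and 307 (3.22%) lower. This number leaned on 4 reference cells with over 50000 UMIs, which held 37.5% of that group's UMIs. Without cells over 50000 UMIs in the reference, 646 of 9617 (6.72%) were higher and 378 (3.93%) lower, and for core members against that reference 624 of 9475 (6.59%) and 1032 (10.9%). Scaling by the median ratio moved the share of higher genes among those called from 79.0% to 62.3%, after a shift of 0.20 in the median log2 ratio. Hedgehog pathway genes were higher for 8 of 13 and lower for 0, with the deep reference cells or without them. Among them were Gli2 and Hhip, the last at 10.3 against 1.51 CPM. Core members against the reference without the deep cells had 5 of 12 higher and 4 lower. Growth factor genes were higher for 9 of 18, including Kit (63.9 against 12.9 CPM), a receptor later used by molecular layer interneurons, and Erbb4, a neuregulin receptor, at 1882 against 426 CPM. Without the deep cells 7 of 18 were higher and 1 lower, and core members against that reference had 4 of 15 higher and 5 lower. The midbrain markers Tal1, Gata2, Pax7 and Otx2 were lower in members for 4 of 4 tested.

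Levels of the rule's own genes, which were left out of the clustering, are given by subcluster as a description of the choice only. In core subcluster 0, Gad1 was at 436 CPM and Slc32a1 at 224 CPM. Subcluster 3 was similar at 438 and 229 CPM, while subcluster 1 had 168 and 80.4 CPM. Pax2 was at 621, 857 and 530 CPM in subclusters 0, 3 and 1, and Slc6a5 at 98.6, 104 and 69.0 CPM. Genes that led the subclusters were used to form them and are given only as names: Bhlhe22, Gpr22, Cartpt and Pnoc for subcluster 0, Ppp1r14a, Klhl35, Nhlh1 and Robo3 for subcluster 1, and Sgcd, Amph, Kcnma1 and Glra2 for subcluster 3. Outside the core, subcluster 2 (92 cells) carried Eomes, Lmx1a and Otx2, which mark unipolar brush cells, beside granule cell markers, and 46.7% of it was called doublet at a median of 21303 UMIs. Subcluster 6 (30 cells) carried Olig1, Olig2, Sox10 and astroglial markers, with 53.3% called. Subclusters 4 (52 cells) and 7 (27 cells) had an Mki67 or Top2a UMI in 90.4% and 88.9% of their cells. Subcluster 4 was led by Acta2, Mgp, Tagln, Dcn and Col1a1, with 4 fibroblast, 3 mural and 3 astroglial markers enriched beside Kirrel2 and Prdm13, and 19.2% of it was called doublet. Subcluster 7 had 5 pericyte or mural markers enriched, Rgs5 and Pdgfrb among them, beside 4 of the Purkinje list and 3 of granule cell precursors, with 7.41% called. Subcluster 8 (26 cells) had Hoxa2, Hoxb2, Hoxa3 and Hoxb3, genes of hindbrain segments behind the cerebellum, and no called doublet. None of these subclusters was given a cell type name.

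Cell cycle transcripts were less frequent in members than in Ptf1a cells. Thinned to 3000 UMIs, 109 of 533 control members (20.5%, interval 17.1 to 24.1%) had a UMI of Mki67 or Top2a, against 39.9% of the Ptf1a cells, 41.3% of those with both genes and 26.6% of other control cells. Unthinned, the share in members was 30.9%. Barcodes with over 50% haemoglobin, a set that includes some members, showed 10.8% after thinning. Whether this share came from free RNA or from transcripts of those cells themselves was not tested. Among core members the thinned share was 6.16%. The core was chosen by markers of other types and not by a cell cycle measure. Cell cycle genes were not left out of the clustering, so this low share can follow in part from how the core was formed. The core left out subclusters 4 and 7, where 90.4% and 88.9% had an Mki67 or Top2a UMI unthinned. By the same measure core subcluster 1 had 26.1%, and subclusters 5 and 8 outside the core had 14.3% and 15.4%. With called doublets left out, the thinned share in control members was 17.1%. For the levels that follow, control members were split by unthinned UMIs, so deeper cells more easily fell among those with a transcript. Depth was not matched between the sets. Members without an Mki67 or Top2a UMI had more Sst (266 against 62.3 CPM), Pnoc (99.7 against 18.2 CPM) and Glra2 (252 against 87.0 CPM) than those with one. Cdkn1c stood at 1425 against 598 CPM. These genes, and those of the next split, were named after their values were seen. Between these 2 sets of members, 119 of 9600 genes (1.24%) were lower in those with a cycling UMI and 703 (7.32%) higher. Markers of other cell types moved with this split: granule cell precursor, unipolar brush cell and choroid plexus markers were higher in members with a cycling UMI for 4 of 4 genes tested each, and fibroblast markers for 2 of 4. Their part in the differences was not tested.

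Splitting control members by Slc6a5 separated few genes. Of 9456 genes, 26 (0.275%) were higher in the 259 members with an Slc6a5 UMI and 54 (0.571%) were lower. Tfap2a stood at 174 and 180 CPM, Zfp804a at 1060 and 855 CPM and Sst at 157 and 189 CPM with and without it. Markers of other cells were among the genes called. Hox genes of the hindbrain list were higher in members with Slc6a5 for 4 of 5 (Hoxa5, Hoxa2, Hoxb3 and Hoxa3), and choroid plexus and fibroblast markers were lower for 3 of 4 each. Their part in the split was not tested. The largest difference was Nts (neurotensin), at 82.8 against 4.34 CPM, but it rested on 18 cells, and 1 cell gave 25.9% of its UMIs. Because a UMI of Slc6a5 is missed in many cells at this depth, both sets can hold cells of either kind.

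In the control library 3.46% of cells were interneurons (3.19 to 3.75%), and in the mutant library 0.188% (0.128 to 0.267%), a ratio of 0.0543 (0.0366 to 0.0780). In the whole library, Pax2 stood at 20.8 CPM in the control and 0.693 CPM in the mutant, from 4023 and 129 UMIs, and members held 76.3% and 77.5% of them. Cells with Pax2 and Ptf1a numbered 98 among control cells, and none were seen among 16482 mutant cells, which allows a share of up to 0.0182%. An inhibitory UMI was more frequent in the mutant, in 27.1% of its cells against 10.2% of control cells. Gad1 stood at 55.1 CPM in mutant cells outside the members and 5.41 CPM in the control ones. A lower share of cells can come from fewer such cells, from more cells of other types or from cells that no longer reach the rule, and with 1 library per genotype these cannot be told apart. Restricted to core subclusters, with the other members left out of the total as well, the shares were 2.005% and 0.0729%, a ratio of 0.0364.

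**Figure D4:**
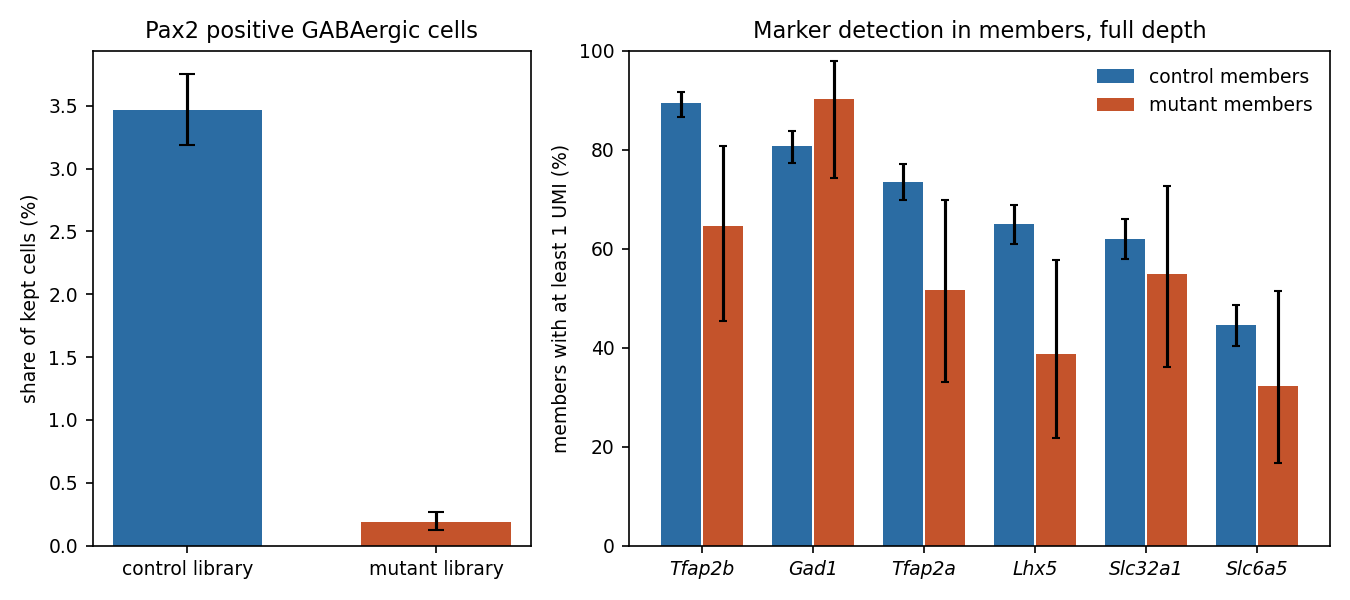
Left, members as percent of the cells kept in each library; right, percent of members with at least 1 UMI of 6 genes, with 95% exact binomial intervals (counting error only). Gad1, Slc32a1 and Slc6a5 belong to the rule that chose the members. The control share is 3.46% and the mutant share 0.188%, and Tfap2b is detected in 89.3% of control and 64.5% of mutant members.

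The targeted genes were checked first. Smarca4 stood at 96.3 CPM in control members (718 UMIs) and 68.0 CPM in mutant members (25 UMIs), a ratio of 0.706 (0.454 to 1.05), and at 67.4 and 49.9 CPM in the other cells of the libraries. UMIs at transcript 3' ends cannot show whether a floxed part inside a gene is lost, so these levels do not check the genotype of single cells. Ctnnb1, whose allele is truncated and not removed, stood at 83.3 CPM in control and 166 CPM in mutant members, a ratio of 1.99 (1.505 to 2.59).

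Of the transcription factor genes outside the rule, Tfap2a, Lhx5 and Zfp804a were lower in the 31 mutant members than in control members. In the 12 mutant core members Tfap2a and Lhx5 were near the control level, but these cells were placed there by clustering with control members. At the edge of the rule, 14 of the 31 had a single Pax2 UMI. Tfap2a was at 114 against 177 CPM, a ratio of 0.645 (0.462 to 0.876), and was detected in 16 of 31. Lhx5 was at 73.4 against 150 CPM (0.489, 0.321 to 0.715), and Zfp804a at 520 against 959 CPM (0.542, 0.467 to 0.626). Tfap2b was not lower, at 547 against 466 CPM, a ratio of 1.17 (1.013 to 1.35), though it was seen in 64.5% of mutant and 89.3% of control members. In core subclusters, Lhx5 was at 198 CPM in mutant and 221 CPM in control members, and Tfap2a at 283 and 277 CPM, whereas Zfp804a was at 547 and 1420 CPM. Outside the core, Lhx5 was at 22.9 and 107 CPM and Tfap2a at 45.9 and 116 CPM. Of the 12 mutant members in core subclusters, 11 had Tfap2b, 10 Tfap2a and 8 Lhx5 UMIs. Subcluster 5 held 14 of the 31 mutant members, beside 28 control ones, with Lhx5 at 26.2 CPM and Tfap2a at 65.6 CPM, and with enriched Calb1, Pcp4 and Dab1 of the Purkinje list and Hoxb2 and Hoxb3 of the hindbrain list. Pax8 and Pax5, paralogues of Pax2, had 9 and 12 UMIs in mutant members, at 24.5 and 32.6 CPM against 0.268 and 3.09 CPM in control members.

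Genes of the Wnt pathway were higher in mutant members, mostly in those outside the core. Of 11 tested beta-catenin targets, 10 were at least 2-fold higher than in control members and 0 lower, with a median log2 ratio of 2.27 against 0.17 over all genes, where 1313 of 10262 genes (12.8%) were higher and 719 (7.01%) lower. Scaling by the median ratio would lower every log2 ratio of mutant to control members by 0.14, which leaves each direction named here as it is. Wif1, a secreted Wnt inhibitor, stood at 193 CPM (71 UMIs) against 0.268 CPM (2 UMIs), a ratio of 720 (192 to 6058). Lef1, a transcription factor partner of beta-catenin, stood at 122 against 13.02 CPM, Nkd1, a feedback inhibitor, at 288 against 59.04 CPM, and Axin2 at 51.7 against 11.9 CPM. In the other mutant cells the same genes were also high, with Wif1 at 299 CPM, Lef1 at 167 CPM, Nkd1 at 456 CPM and Axin2 at 113 CPM. Of the 10 genes, 9 were lower in mutant members than in other mutant cells, Znrf3 being the exception. Wif1 was detected in 12 of 31 mutant members (38.7%, interval 21.9 to 57.8%), in 42.1% of other mutant cells and in 26.0% of mutant barcodes with over 50% haemoglobin, at median depths of 9313, 9937 and 17425 UMIs. Thinned to 3000 UMIs, the shares were 26.7% (12.3 to 45.9%) in members, 31.6% in other mutant cells and 12.3% in haemoglobin-rich barcodes. Haemoglobin made up a median of 79.6% of the UMIs of those barcodes, so thinning left them fewer other UMIs than members. At full depth the members' interval includes the haemoglobin-rich share, so Wif1 in members could not be told from free RNA at this number of cells. Core mutant members held 28.8% of the UMIs of all genes but 19 of the 390 UMIs of these 10 targets (4.87%), 2 of the 71 of Wif1 among them. In the core, 5 of the 10 were at least 2-fold above control core members and 7 had at most 1 UMI, while outside the core 10 of 10 were at least 2-fold above the control members there. Axin2 was at 9.43 CPM from 1 UMI against 8.11 CPM in control core members, Apcdd1 at 9.43 against 16.2 CPM, and Nkd1 at 75.4 CPM from 8 UMIs against 31.01 CPM.

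The other 7 genes with the largest ratios were Hpse2, Pde1a, Rgs6, Cyp1b1, Fstl4, Fgf15 and Cpne8. Fstl4 stood at 647 CPM in mutant members against 23.6 CPM in control members and 542 CPM in other mutant cells. Rgs6, a regulator of G protein signalling, was at 229 CPM against 7.38 CPM, with 298 CPM in other mutant cells. Several of these rest on few cells: Hpse2 came from 2 cells, all 27 Fgf15 UMIs came from 1 cell, and 1 cell gave 53.8% of Pde1a. Receptors for GABA and glycine were higher for 8 of 15 and lower for 0, and glutamate receptors for 10 of 21 and 0. Gabrg3 stood at 166 against 14.4 CPM and Gria1 at 204 against 17.3 CPM. These levels came mainly from mutant members outside the core. Core members held 29 of the 193 UMIs of the 8 inhibitory receptor genes and 31 of the 618 of the 10 glutamate receptor genes, with 2 and 3 of them at least 2-fold above control core members. They held 0 of the 85 Grik1, 1 of the 65 Grm8 and 3 of the 75 Gria1 UMIs. Purkinje markers were higher for 4 of 6 (Calb1, Pcp4, Foxp2 and Dab1), while Skor2 had no UMI. Core members held 0 of the 9 Calb1 UMIs but 73 of the 120 of Foxp2, of which 1 cell gave 41.7%. Cell adhesion genes were higher for 18 of 39 and lower for 1, and for 6 of those 18 in the core. The neuropeptide Sst was at 286 CPM, of which 1 cell gave 65.7%, and all 13 Npy UMIs came from 1 cell.

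Lower in mutant members were the genes of cycling cells and markers of granule cell precursors (4 of 4 tested) and unipolar brush cells (3 of 4). Other glutamatergic markers had no common direction. Those of the cerebellar nuclei were higher for 2 of 3 (Lhx9 and Meis2) and lower for 1 (Slc17a6). Of 4 dorsal midbrain markers, 2 were higher (Tfap2d and Pou4f1) and 2 lower, and core mutant members held 19 of the 21 UMIs of the higher ones. G2 and M phase genes were lower for 42 of 51 and S phase genes for 21 of 36. Of the 8 genes with the smallest ratios, Barhl1, Mfap4 and Eomes had 0 UMIs, levels at least 7.56-fold, 6.86-fold and 6.13-fold lower than in control members with the floor at 3 UMIs over the group. These mark granule cell precursors and unipolar brush cells. Pclaf, Rrm2, Hist1h1b and Pbk belong to the cell cycle, and Ttr stood at 215 against 5006 CPM. In control members the UMIs of these genes lay mainly outside the core: Eomes was at 77.8 CPM there and 4.93 CPM in the core, Hist1h1b at 169 and 7.40 CPM, and Ttr at 7972 and 181 CPM. Subclusters 2, 4 and 8, with 92, 52 and 26 control cells, had 0 mutant cells. Erythroid markers were lower for 5 of 5, and 0 mutant members had over 50% haemoglobin against 17 control ones. The part of doublets and of red cell RNA in these differences was not tested.

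**Figure D5:**
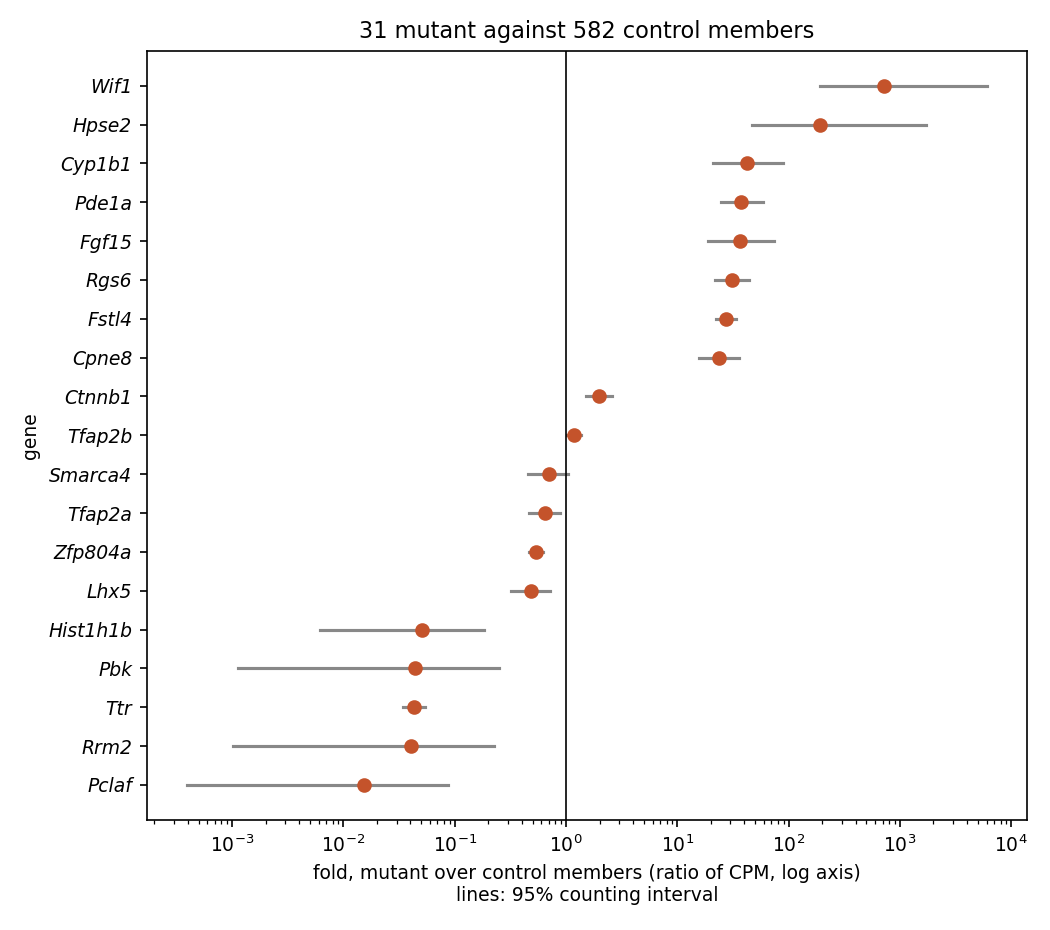
Ratio of CPM, 31 mutant over 582 control members, on a log axis with 95% counting intervals, for 19 named genes with at least 1 UMI in both groups. Wif1 lies farthest to the right at 720, Ctnnb1 at 1.99, and Tfap2a, Zfp804a and Lhx5 lie between 0.489 and 0.645. In core members alone, 12 of them mutant, Tfap2a and Lhx5 were near the control level, which can follow from how the core was formed.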

How the data were processed

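The deposited values are raw UMI counts. Per the submitters' processing notes, Cell Ranger 7.0.1 and mm10 were used. Neither the annotation release nor the treatment of intronic reads is given in the sources used here. Dead cells had been sorted out with 7-AAD, and 40000 cells of each pool were loaded, per the labels' protocols. Cells with at least 1000 UMIs, 500 genes and at most 10% mitochondrial UMIs were kept, 16812 of 21457 control and 16482 of 21596 mutant barcodes. Kept control and mutant cells had medians of 10261 and 9936.5 UMIs. Of the barcodes left out, 1 control and 0 mutant ones met the gene rule.

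Counts were summed over cells, as CPM, and compared as log2 of (CPM + 1) ratios among genes at 10 CPM or more. Genes were called at 2-fold by size, with no test. Intervals are exact Poisson, exact binomial (Clopper-Pearson) or conditional binomial at 95%. A count of 0 allows 3 counts. Named genes were the 20 highest and 10 lowest against other control cells and 8 each way in the other comparisons, at 50 CPM or more in the higher group, leaving out genes of the rule, ribosomal, mitochondrial and haemoglobin genes, sex-linked genes and Gm or Rik names, with those of largest difference in each of the fixed lists. Doublets were called with Scrublet in scanpy 1.11.5 (expected rate 16%) and kept. Members of both libraries were clustered without the rule genes: 2000 variable genes, 20 components, 15 neighbours, Leiden resolution 0.5. Members, lists and markers were chosen with earlier results of these data known. The steps to folds and intervals were tested on simulated counts. Alternatives covered the rule, cell and gene filters, doublets, scaling and pseudocount. Some genes that the naming rule picks are not reported here.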

Additional observations from a re-analysis of the deposited data

How the results depend on the processing

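Of 162 summary values recomputed over 19 other settings, 114 stayed within the main value's interval or within 1.5 times the main count, and 48 moved. A reversal was not defined for these values, only for single genes at least 2-fold apart in the main setting. For core subclusters, the share of higher genes among those called went from 49.9% to 30.5% against other control cells. It went from 58.6% to 38.1% against Ptf1a cells and from 64.6% to 49.2% for mutant against control members. Of 1736 values of single genes, 1341 stayed, 394 moved and 1 reversed: the log2 ratio of Hes5 against the Tal2, Gata3 or Sox14 cells was 1.68 when the rule was applied to cells thinned to 3000 UMIs. No paired analysis was possible because each genotype is 1 pooled library. The setting restricted to core subclusters, and those on cells over 50000 UMIs and on members over 50% haemoglobin, were added after the data were seen.

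The control share of members was 2.90% with at least 2 Pax2 UMIs, 2.93% with at least 2 inhibitory UMIs, 2.15% with the rule on thinned cells, 2.72% with no cell filter and 2.005% for core subclusters. The mutant share was 0.103% with 2 Pax2 UMIs, 0.0832% on thinned cells and 0.0729% for core subclusters, and the ratio of shares was 0.0356 with 2 Pax2 UMIs and 0.0364 for core subclusters. The share with a cell cycle transcript was 15.9% with the rule on thinned cells, 17.1% without called doublets, 6.16% for core subclusters and 30.9% without thinning.

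Counts of genes higher and lower against other control cells were 742 and 841 with the rule on thinned cells, 662 and 278 with no cell filter, 662 and 1509 for core subclusters, 251 and 104 with a 50 CPM filter, and 250 and 202 against other inhibitory cells only. The lower count was 692 without called doublets, 257 with a pseudocount of 5 CPM and 957 with no filter on low genes. Against Ptf1a cells, the counts were 1431 and 941 with no gene filter and 362 and 224 at 50 CPM, and the lower count was 997 on thinned cells and 1520 for core subclusters. Against the Tal2, Gata3 or Sox14 cells, they were 2198 and 801 with no gene filter and 509 and 85 at 50 CPM. The higher count was 648 without cells over 50000 UMIs. The lower count was 731 on thinned cells, 953 for core subclusters, 185 with a pseudocount of 5 CPM and 476 with median ratio scaling. Mutant against control members gave 2572 and 2479 with no gene filter and 416 and 140 at 50 CPM, and the lower count was 1489 on thinned cells and 1284 for core subclusters. Fewer genes are tested with the 50 CPM filter and more with none; for the other settings the cause was not tested. With 31 mutant members, a gene at 10 CPM rests on few UMIs.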
